A study of Mus musculus with 24 samples.

Results

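The IkB family and NF-kB feedback inhibitors were examined here as 8 genes taken by name from the count table: Nfkbia, Nfkbib, Nfkbie, Nfkbiz, Bcl3, Tnfaip3, Tnip1 and Cyld. All 8 were among the 13479 genes of the table, and all 8 were among the 11337 genes that passed the filter on low counts and were tested. Their transcripts had been counted in bulk cultures of primary mouse dermal fibroblasts at passage 5 with a bulk form of MARS-seq, which counts 3′ ends of polyadenylated RNA by unique molecular identifiers (UMIs). Mice of 3 genotypes supplied the cells: wild type (WT), NIK-X mut (MUT) and NIK knockout (KO), where NIK is the kinase encoded by Map3k14. They were untreated or had received TWEAK at 100 ng/ml for 6 or 24 h.

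There were 24 libraries in 9 groups, with 4 libraries per time for WT and 2 per time for MUT and for KO. TWEAK is a cytokine of the TNF family that binds the receptor Fn14. The labels do not say what the NIK-X mutation changes, and the library names call these cells TAD. The library names also give 3 h for the early time point where the sample titles and the treatment protocol give 6 h, and it is called 6 h here. No untreated library was collected at 6 or 24 h as far as the labels state, so an effect of TWEAK and an effect of time in culture cannot be told apart. Whether replicates of a group came from separate mice is not stated, so p-values measure the spread between these samples, which may be technical. In bulk cultures, fewer expressing cells and less RNA per cell cannot be told apart.

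The NF-kB transcription factors are held inactive in the cytoplasm by the classical IkB proteins, which are destroyed after phosphorylation by the IKK complex. Several of the inhibitors are themselves encoded by NF-kB target genes, so that activation of the pathway is followed by resynthesis of its inhibitors, a negative feedback loop. A second group, the atypical IkB proteins, acts in the nucleus on DNA-bound NF-kB dimers, and the ubiquitin-editing proteins remove or block the ubiquitin chains that carry the signal from receptors to IKK. NIK acts mainly in the noncanonical branch, in which p100, the product of Nfkb2, is processed to p52.

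The proximal promoters of the members are shown because these genes are textbook NF-kB targets to different degrees. RefSeq promoter windows, from 250 bases before to 50 bases after each annotated start on GRCm38.p6, were found for 7 of the 8 genes, all but Nfkbiz, with 2 starts for Tnfaip3. The kB consensus, the 10-base binding motif of NF-kB, was searched on both strands. The 250 bases before the start follow for 5 genes, written 5′ to 3′ on the strand of the gene, with bases inside a match in capitals. All are on the minus strand except Nfkbie.
Nfkbia, chr12:55492648-55492897: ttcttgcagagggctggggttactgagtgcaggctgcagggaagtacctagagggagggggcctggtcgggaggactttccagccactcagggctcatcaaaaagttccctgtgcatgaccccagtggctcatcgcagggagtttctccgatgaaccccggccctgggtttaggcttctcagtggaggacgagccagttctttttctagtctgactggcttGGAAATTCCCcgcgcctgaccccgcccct
Nfkbie, chr17:45555450-45555699: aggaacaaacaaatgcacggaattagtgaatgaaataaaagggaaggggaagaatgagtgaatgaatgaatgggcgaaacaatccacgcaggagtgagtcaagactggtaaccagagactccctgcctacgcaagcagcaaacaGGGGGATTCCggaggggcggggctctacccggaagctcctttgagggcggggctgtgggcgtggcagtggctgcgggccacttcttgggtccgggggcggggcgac
Tnfaip3, first start, chr10:19015411-19015660: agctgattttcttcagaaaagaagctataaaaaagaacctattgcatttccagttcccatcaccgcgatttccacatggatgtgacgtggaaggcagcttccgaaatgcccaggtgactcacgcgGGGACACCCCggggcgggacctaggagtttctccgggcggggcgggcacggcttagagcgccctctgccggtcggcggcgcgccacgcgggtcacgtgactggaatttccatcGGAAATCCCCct
Tnip1, chr11:54962941-54963190: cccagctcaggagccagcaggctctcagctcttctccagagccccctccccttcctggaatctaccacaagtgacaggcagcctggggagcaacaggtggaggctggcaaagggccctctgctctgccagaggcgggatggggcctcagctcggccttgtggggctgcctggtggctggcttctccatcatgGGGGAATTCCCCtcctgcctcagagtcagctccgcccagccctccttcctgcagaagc
Nfkbib, chr7:28766645-28766894: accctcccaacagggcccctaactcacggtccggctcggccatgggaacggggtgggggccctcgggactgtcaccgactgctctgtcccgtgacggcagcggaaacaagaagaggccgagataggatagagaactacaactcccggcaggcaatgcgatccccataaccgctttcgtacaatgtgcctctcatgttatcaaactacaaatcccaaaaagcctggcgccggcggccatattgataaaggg

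A match was found in 6 of the 7 genes, and in 9.55% of the 27025 genes with a window (8.46% of 32851 windows). The match of Nfkbia read GGGAATTTCC on the opposite strand and lay 29 to 20 bases before the start. Nfkbie held GGGGGATTCC from 106 to 97 bases before its start. The first start of Tnfaip3 had a match on both strands from 125 to 116 bases before it and another from 12 to 3 bases before it, while its other start had none. Tnip1 had 4 overlapping matches, between 58 and 47 bases before the start, that form 1 palindromic stretch. The match of Cyld lay 155 to 146 bases before its start, and that of Bcl3 lay 3 to 12 bases after its start on both strands. The window of Nfkbib held no match. It lies inside the gene span given below, whose 5′ end is base 28767512, so bases upstream of that end were not searched. The windows of Tnfaip3 lie inside its span as well (5′ end at base 19015657), the first all but a few bases. A match describes these letters only, and binding was not measured.

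**Figure D1:**
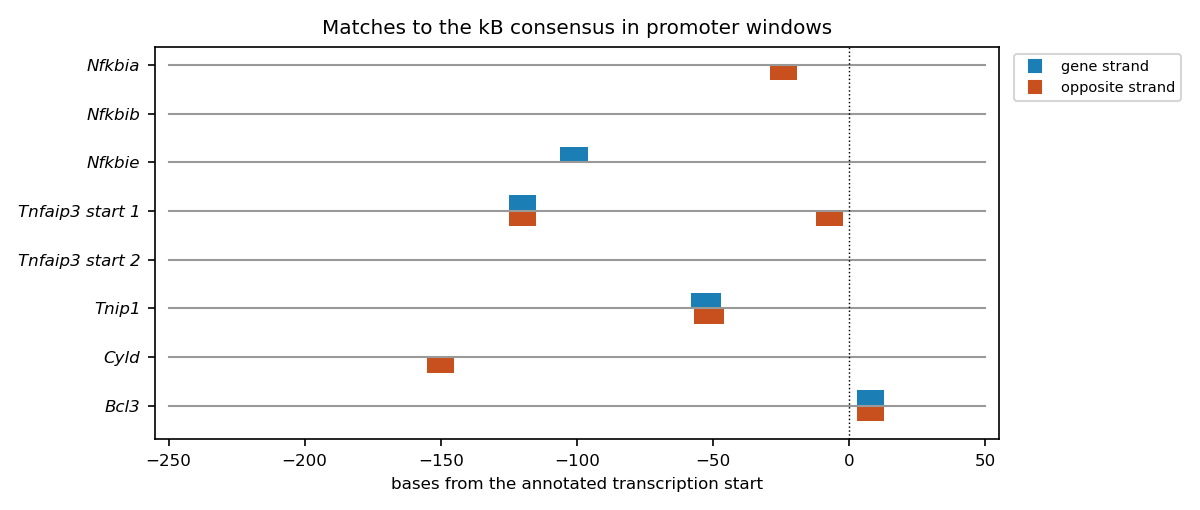
Positions of matches to the kB consensus in the RefSeq promoter windows, in bases from the annotated transcription start (dotted line), with matches on the gene's strand above each line and on the opposite strand below. The windows of Nfkbib and of the second Tnfaip3 start are empty, and the match of Bcl3 lies after its start.

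Library totals ranged from 889863 to 4342981 UMIs, with 12333 to 13338 genes detected, and levels are given as CPM, UMI counts scaled to a common library size and normalised by TMM. Map3k14 had 4 UMIs in all 6 KO libraries together, against 34 to 186 in each WT library and 63 to 164 in each MUT library. All 10 dermal fibroblast markers were in the table, and their summed level was 15662 to 23042 CPM across the groups. Krt5, Krt1, Pecam1, Ptprc, Adgre1 and Itgam were not in the table, and the markers of keratinocytes (2 of 4 in the table), endothelium (3 of 4) and leukocytes (3 of 6) each summed to at most 42.4 CPM in any library. On the first principal component (25.7% of variance), WT replicates 1 and 2 lay with the KO libraries (-39.8 to -6.37) and WT replicates 3 and 4 with the MUT libraries (6.69 to 41.3), a division that follows no label. Values are therefore also given for WT replicates 1 and 2 and WT replicates 3 and 4 separately where they change a result. The 18 cell cycle genes summed to 426 to 1629 CPM in untreated WT, 405 to 802 CPM at 6 h and 796 to 2379 CPM at 24 h. In MUT they summed to 1375 to 1454 CPM untreated, 704 to 762 CPM at 6 h and 2011 to 2094 CPM at 24 h. They summed to 422 to 515 CPM in every KO library. The part of these differences in the results below was not tested.

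In WT cells, 6 of the 8 members rose at 6 h and the same 6 at 24 h: Nfkbia, Nfkbib, Nfkbie, Bcl3, Tnfaip3 and Tnip1. Cyld and Nfkbiz did not pass the test at either time. Adjusted p-values throughout are from edgeR's quasi-likelihood test with Benjamini-Hochberg adjustment over the 11337 genes, changes are log2 changes ± SE, and a gene passed at an adjusted p under 0.05. Over all genes, 4.35% passed as higher at 6 h (6.41% in either direction) and 3.68% as higher at 24 h (3.19% as lower, 6.87% in either direction). The median log2 change of the members was 1.71 at 6 h and 1.84 at 24 h, beside -0.01 and -0.0017 over all genes. With the replicate number as a block the same comparisons called 1314 genes in place of 727 at 6 h and 1770 in place of 779 at 24 h. Where libraries are said below to lie apart, the share of all genes so separated was not counted.

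Among the classical IkBs, Nfkbie had the largest change. It encodes IkB-epsilon, which retains NF-kB dimers in the cytoplasm (chr17:45555703-45563169, plus strand, GRCm38). Its level was 6.85, 5.47, 10.2 and 7.07 CPM in untreated WT replicates 1 to 4. After 6 h it was 122, 188, 108 and 108 CPM, and after 24 h it was 102, 152, 85.7 and 99.1 CPM. The treated and untreated libraries were far apart, and the libraries of 6 and 24 h overlapped. The change was 4.16 ± 0.24 at 6 h (17.9-fold, adjusted p = 1.53e-10), rank 22 of 11337 among rises, and 3.90 ± 0.24 at 24 h (14.9-fold, adjusted p = 4.31e-10).

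Nfkbia encodes IkB-alpha, the most rapidly resynthesised inhibitor (chr12:55489410-55492647, minus strand). Untreated WT libraries had 76.1, 44.7, 50.1 and 57.9 CPM. They reached 663, 512, 691 and 754 CPM at 6 h and 784, 651, 412 and 386 CPM at 24 h. All treated libraries lay above all untreated ones, and at 24 h replicates 1 and 2 were higher than replicates 3 and 4. The change was 3.52 ± 0.24 at 6 h (11.5-fold, adjusted p = 2.22e-09, rank 44) and 3.29 ± 0.24 at 24 h (9.77-fold, adjusted p = 5.81e-09).

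Nfkbib encodes IkB-beta, whose synthesis is classically described as less dependent on NF-kB (chr7:28758251-28767512, minus strand). It was the least changed of the 6. Its WT levels were 78.0, 67.6, 71.8 and 70.1 CPM untreated, 167, 113, 106 and 155 CPM at 6 h, and 151, 106, 114 and 119 CPM at 24 h. The untreated and treated libraries did not overlap. The change was 0.90 ± 0.16 at 6 h (1.87-fold, adjusted p = 0.000771) and 0.77 ± 0.15 at 24 h (1.70-fold, adjusted p = 0.00279). Nfkbib overlaps Sirt2 on the opposite strand, and the strand setting of the counting is not given in the sources used here, so reads of the 2 genes could be mixed.

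Of the ubiquitin-editing members, Tnfaip3 and Tnip1 rose and Cyld did not pass. Tnfaip3 encodes A20, which edits ubiquitin chains on signalling adaptors (chr10:19000910-19015657, minus strand). Its untreated WT levels were 6.85, 4.18, 4.67 and 7.07 CPM. They rose to 34.4, 51.6, 62.3 and 67.7 CPM at 6 h and were 24.6, 37.5, 26.0 and 23.5 CPM at 24 h. The change was 3.29 ± 0.30 at 6 h (9.76-fold, adjusted p = 1.37e-07, rank 56) and 2.32 ± 0.30 at 24 h (5.00-fold, adjusted p = 1.66e-05).

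Tnip1 encodes ABIN-1, a ubiquitin-binding partner of A20 (chr11:54910785-54962917, minus strand). It was 62.0, 65.6, 68.8 and 72.7 CPM in untreated WT, 187, 280.3, 227 and 251 CPM at 6 h, and 196, 232, 183 and 185 CPM at 24 h. No untreated library reached the lowest treated one. The change was 1.82 ± 0.14 at 6 h (3.53-fold, adjusted p = 1.22e-08) and 1.57 ± 0.14 at 24 h (2.96-fold, adjusted p = 8.55e-08). Cyld, a deubiquitinase that removes linear and lysine-63-linked chains (chr8:88697028-88751945, plus strand), was 38.4, 24.1, 15.7 and 25.7 CPM untreated and between 21.7 and 54.4 CPM in the treated WT libraries. These ranges overlapped. Its change was 0.39 ± 0.25 at 6 h (adjusted p = 0.447) and 0.59 ± 0.24 at 24 h (adjusted p = 0.158). At 24 h Cyld passed with the replicate number as a block (0.62 ± 0.17, adjusted p = 0.0141) and without untreated WT replicate 1 (0.85 ± 0.23, adjusted p = 0.0321).

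Of the atypical IkBs, Bcl3, a nuclear partner of p50 and p52 homodimers (chr7:19808462-19822770, minus strand), rose at both times. Its untreated WT levels were 8.37, 24.8, 34.0 and 24.4 CPM, and replicate 1 was the lowest WT library at each time. The levels were 42.7, 73.5, 77.2 and 78.0 CPM at 6 h and 60.0, 114, 133 and 87.6 CPM at 24 h. The treated libraries lay above the untreated ones. The change was 1.60 ± 0.29 at 6 h (3.03-fold, adjusted p = 0.0013) and 2.12 ± 0.29 at 24 h (4.34-fold, adjusted p = 3.73e-05). The antisense gene Gm16174 overlaps Bcl3 and is in the table, so reads of the pair could be mixed. Nfkbiz, which encodes IkB-zeta, an inducible nuclear co-regulator (chr16:55811375-55838899, minus strand), held 1 to 35 UMIs per WT library, 1.19 to 10.8 CPM. Its groups overlapped, with a change of -0.39 ± 0.41 at 6 h (adjusted p = 0.69) and 0.15 ± 0.36 at 24 h (adjusted p = 0.869).

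**Figure D2:**
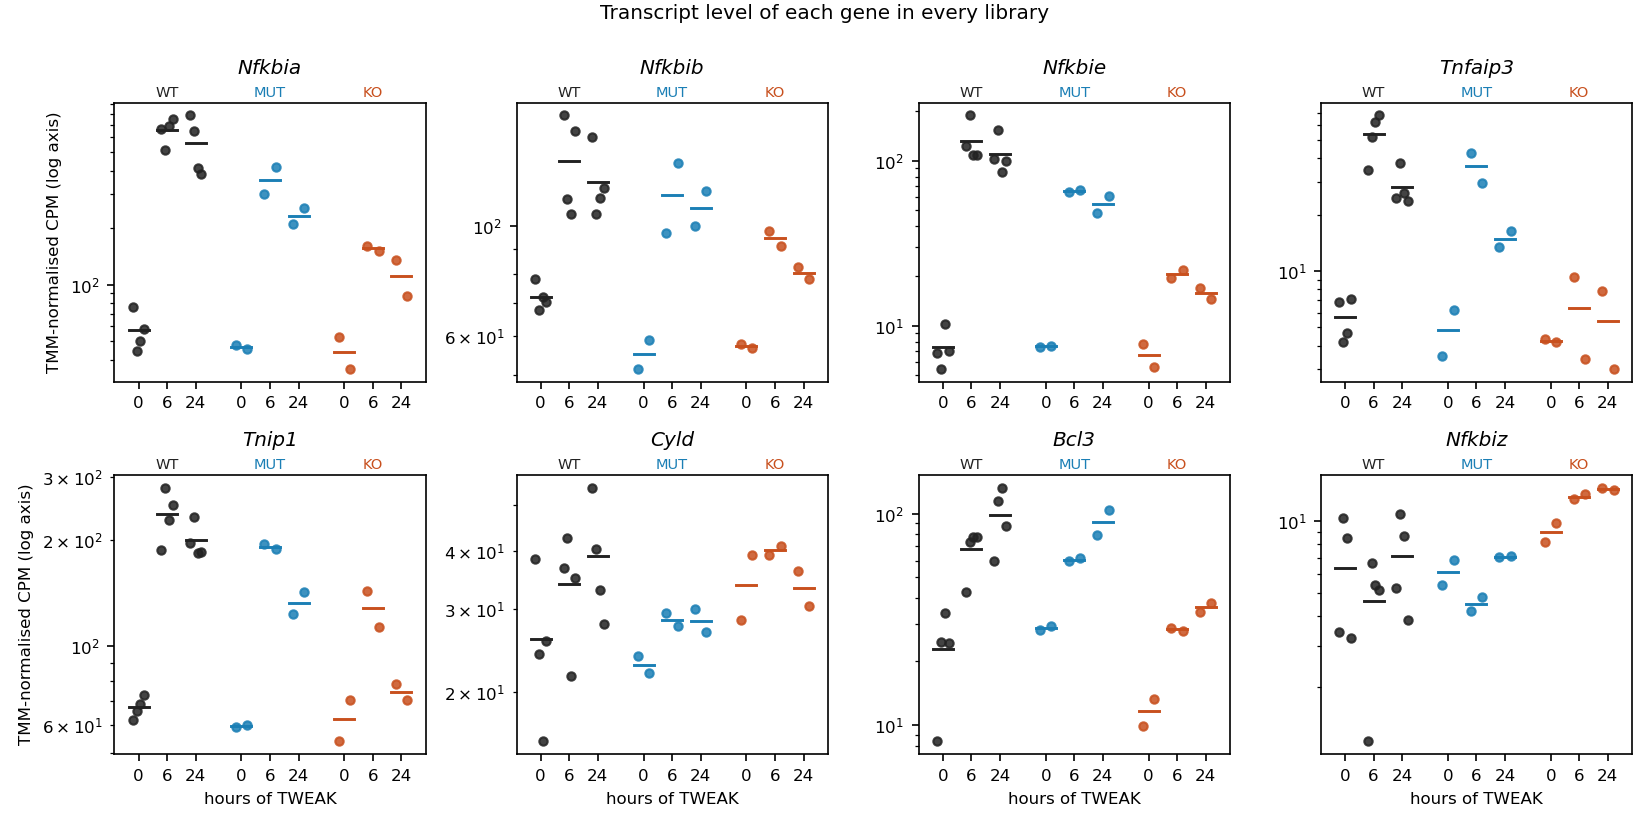
TMM-normalised CPM of the 8 genes in every library (log axis), by genotype and hours of TWEAK, with 1 point per library and a bar at the group mean. The treated WT libraries of Nfkbia, Nfkbib, Nfkbie, Tnfaip3, Tnip1 and Bcl3 all lie above the untreated ones, while of the treated KO libraries of Tnfaip3 those of replicate 1 lie above and those of replicate 2 below the untreated ones. The share of all genes separated in this way was not counted.

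Between 6 and 24 h in WT, Tnfaip3 was the 1 member that changed, and it fell by 0.96 ± 0.25 (1.95-fold lower, adjusted p = 0.0296). Over all genes 2.23% passed as lower and 3.87% in either direction. The 24 h level of replicate 2 (37.5 CPM) was above the 6 h level of replicate 1 (34.4 CPM), so the groups overlapped. The call was lost without WT 6 h replicate 3 (adjusted p = 0.0953) or 4 (0.108), and without WT 24 h replicate 1 (0.06), 3 (0.0864) or 4 (0.0772). It was also lost when only the compared groups were fitted (adjusted p = 0.125) and in WT replicates 1 and 2 alone (-0.51 ± 0.33, adjusted p = 0.544), while WT replicates 3 and 4 alone gave -1.38 ± 0.26 (adjusted p = 0.000763).
Nfkbia did not pass in all WT libraries (-0.23 ± 0.21, adjusted p = 0.624). Its change was 0.29 ± 0.25 (adjusted p = 0.653) in WT replicates 1 and 2 and -0.86 ± 0.18 (adjusted p = 0.00245) in replicates 3 and 4. Bcl3 was 0.52 ± 0.27 (adjusted p = 0.308) and passed with the replicate number as a block (0.54 ± 0.14, adjusted p = 0.0169).

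In MUT cells, 5 of the 8 members rose at 6 h (Nfkbia, Nfkbib, Nfkbie, Tnfaip3 and Tnip1) and 5 at 24 h (Nfkbia, Nfkbib, Nfkbie, Bcl3 and Tnip1), with 1.5% and 0.494% of all genes passing as higher (1.98% and 0.688% in either direction). Nfkbia was 47.9 and 45.5 CPM untreated, 302 and 416 CPM at 6 h, and 209 and 254 CPM at 24 h. The change was 2.94 ± 0.33 (7.69-fold, adjusted p = 1.55e-05) and 2.31 ± 0.33 (4.95-fold, adjusted p = 0.000403). Nfkbie was 7.48 and 7.52 CPM untreated, 64.6 and 66.4 CPM at 6 h, and 48.3 and 61.0 CPM at 24 h, and changed by 3.12 ± 0.32 (8.68-fold, adjusted p = 6.02e-06) and 2.86 ± 0.32 (7.25-fold, adjusted p = 2.13e-05). For both genes the untreated and treated libraries were widely separated.

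Tnip1 in MUT was 59.4 and 59.9 CPM untreated, 194 and 188 CPM at 6 h, and 123 and 142 CPM at 24 h. It changed by 1.68 ± 0.20 at 6 h (adjusted p = 2.34e-05) and 1.16 ± 0.19 at 24 h (adjusted p = 0.00392), and the 24 h call was lost without MUT untreated replicate 1 (0.0798) or 2 (0.0896), or without MUT 24 h replicate 2 (0.0937). Tnfaip3 was 3.51 and 6.22 CPM untreated, 42.8 and 29.6 CPM at 6 h, and 13.4 and 16.3 CPM at 24 h. It rose by 2.90 ± 0.41 at 6 h (7.48-fold, adjusted p = 0.000277) and did not pass at 24 h (1.64 ± 0.42, adjusted p = 0.0858). DESeq2 gave the 24 h change an adjusted p of 0.0313. The treated MUT libraries of every member, Cyld and Nfkbiz included, lay apart from the untreated ones at both times. Those of Nfkbiz lay below at 6 h and above at 24 h. The share of all genes so separated, with 2 libraries in each group, was not counted, so this separation gives no result about the members.

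Nfkbib in MUT was 51.4 and 58.9 CPM untreated, 96.9 and 134 CPM at 6 h, and 99.9 and 118 CPM at 24 h. It changed by 1.07 ± 0.22 (adjusted p = 0.0109) and 0.98 ± 0.22 (adjusted p = 0.0361). The 6 h call was lost without MUT untreated replicate 1 (0.173) or 2 (0.0984) or MUT 6 h replicate 2 (0.224), and the 24 h call in each of the 4 leave-outs (adjusted p from 0.119 to 0.432). Bcl3 was 28.0 and 29.4 CPM untreated, 59.7 and 61.6 CPM at 6 h, and 79.0 and 104 CPM at 24 h. It changed by 1.08 ± 0.39 at 6 h (adjusted p = 0.19) and 1.67 ± 0.38 at 24 h (3.18-fold, adjusted p = 0.0445), a call that was lost with library totals (0.0506) and in each of the 4 leave-outs (adjusted p from 0.139 to 0.469). Cyld (0.31 ± 0.34 and 0.31 ± 0.33) and Nfkbiz (-0.41 ± 0.55 and 0.22 ± 0.49) did not pass at 6 or 24 h. No member passed between 6 and 24 h in MUT, where 0.582% of genes did. Tnfaip3 was the largest of these changes (-1.26 ± 0.37, adjusted p = 0.0938), and DESeq2 gave it an adjusted p of 0.0451.

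In KO cells, Nfkbia and Tnip1 rose at 6 h, and no member passed at 24 h. Over all genes, 0.0794% passed at 6 h, all higher, and none at 24 h (382 genes at an unadjusted p under 0.05, 3 genes past the threshold by DESeq2). Nfkbia was 52.6 and 35.7 CPM untreated, 159.7 and 150.4 CPM at 6 h, and 135 and 87.5 CPM at 24 h. The treated libraries lay above the untreated ones at both times. The change was 1.79 ± 0.34 at 6 h (3.46-fold, adjusted p = 0.0377) and 1.31 ± 0.33 at 24 h (2.48-fold, adjusted p = 0.943). The 6 h call was lost without KO untreated replicate 1 (0.304) or 2 (0.662) and without KO 6 h replicate 1 (0.316) or 2 (0.207).

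Tnip1 in KO was 53.9 and 70.7 CPM untreated, 143 and 113 CPM at 6 h, and 78.4 and 70.5 CPM at 24 h. The 6 h libraries lay apart from the untreated ones, while those of 24 h overlapped them. The change was 1.04 ± 0.20 at 6 h (2.06-fold, adjusted p = 0.0474) and 0.26 ± 0.20 at 24 h. The 6 h call was lost with RLE size factors (0.0505), library totals (0.0805), no filter (0.0713), only the compared groups (0.204), and without KO untreated replicate 1 (adjusted p = 1) or 2 (0.139) or KO 6 h replicate 1 (0.824) or 2 (0.0974).

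The remaining KO members did not pass, with these values. Nfkbie was 7.76 and 5.60 CPM untreated, 19.6 and 21.7 CPM at 6 h, and 16.9 and 14.5 CPM at 24 h, with changes of 1.60 ± 0.39 (adjusted p = 0.457) and 1.18 ± 0.40 (adjusted p = 1). Its treated libraries lay above its untreated ones, and counts were 8 to 45 UMIs per library. Tnfaip3 was 4.31 and 4.20 CPM untreated, 9.28 and 3.37 CPM at 6 h, and 7.84 and 3.0 CPM at 24 h. At both times replicate 1 was above and replicate 2 below both untreated libraries, at 6 to 13 UMIs each, and the changes were 0.37 ± 0.60 and 0.30 ± 0.57. Bcl3 was 9.92 and 13.3 CPM untreated, 28.9 and 28.0 CPM at 6 h, and 34.4 and 38.0 CPM at 24 h. Its changes were 1.31 ± 0.49 and 1.67 ± 0.47. The treated libraries of Bcl3, Nfkbib and Nfkbiz also lay above the untreated ones at both times. With 2 libraries in each group, the share of all genes separated like this was not counted.
Nfkbib was 57.8 and 56.7 CPM untreated, 97.9 and 91.1 CPM at 6 h, and 82.6 and 78.0 CPM at 24 h, with changes of 0.72 ± 0.23 and 0.49 ± 0.23. Nfkbiz was 8.19 and 9.80 CPM untreated, 12.4 and 13.0 CPM at 6 h, and 13.9 and 13.5 CPM at 24 h, with changes of 0.51 ± 0.51 and 0.61 ± 0.50. At 6 and 24 h every KO library of Nfkbiz was above every WT and MUT library of the same time, a difference in level between treated genotypes that was not tested. Cyld lay between 28.5 and 41.0 CPM in all KO libraries. Between 6 and 24 h in KO no gene passed (510 at an unadjusted p under 0.05, 0 by DESeq2). Among members the largest of these changes was that of Tnip1 (-0.78 ± 0.20).

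**Figure D3:**
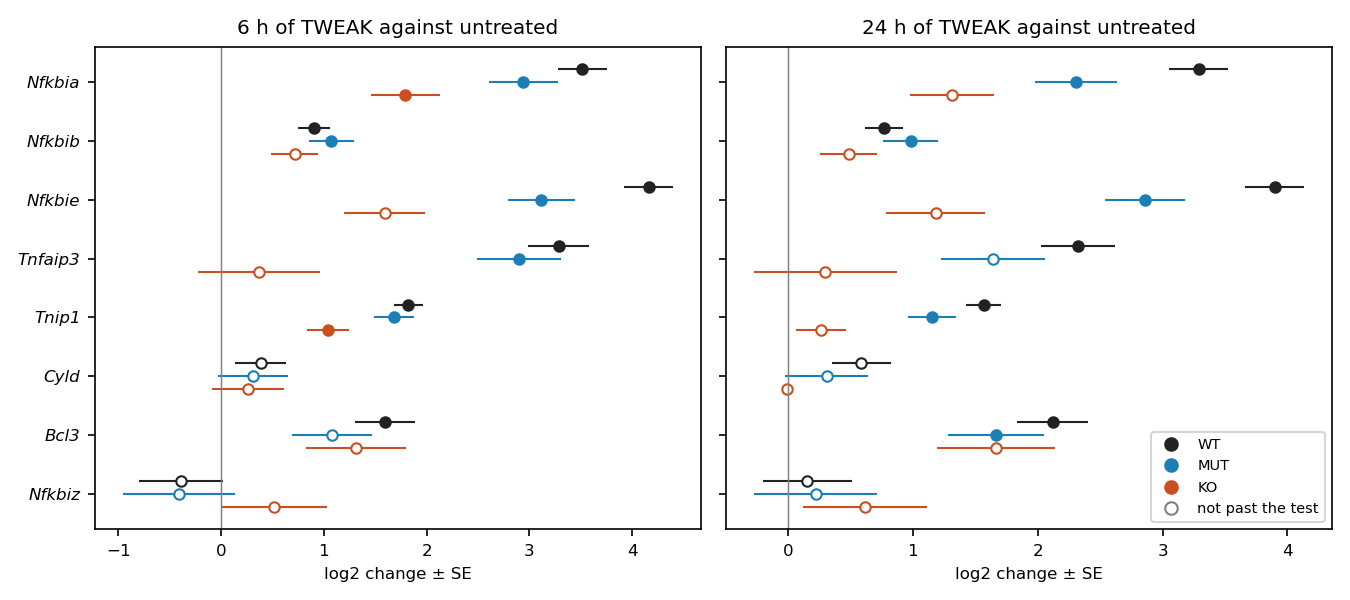
Log2 change ± SE of each gene after 6 h (left) and 24 h (right) of TWEAK in WT, MUT and KO, with filled points for genes past the test. Nfkbie has the largest change in WT at both times (4.16 and 3.90), and the KO points of Tnfaip3 lie near 0 (0.37 and 0.30).

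Whether the responses differed between genotypes was tested as the difference of the log2 changes. KO minus WT passed for Nfkbie at 6 h, and for Nfkbia, Nfkbie and Tnip1 at 24 h, all with a smaller rise in KO. Over all genes 0.0706% passed as lower at 6 h (0.0265% as higher, 0.097% in either direction) and 0.159% at 24 h (0.106% as higher, 0.265% in either direction). The difference for Nfkbie was -2.57 ± 0.49 at 6 h (adjusted p = 0.0422) and -2.72 ± 0.49 at 24 h (adjusted p = 0.0147), the log2 of a 5.93-fold and 6.57-fold smaller rise. The 6 h call was lost in 10 of 21 alternatives: with library totals (0.0567), only the compared groups (0.225), without WT untreated replicate 1 (0.068), 2 (0.0873) or 4 (0.0832), WT 6 h replicate 1 (0.0613), KO untreated replicate 1 (0.83) or 2 (0.0777), or KO 6 h replicate 1 (0.15) or 2 (0.245). The 24 h call was lost with only the compared groups (0.0523) and without KO untreated replicate 1 (0.226) or KO 24 h replicate 1 (0.0546) or 2 (0.111).

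For Nfkbia the difference was -1.98 ± 0.40 at 24 h (3.93-fold smaller rise, adjusted p = 0.0353). This call was lost in 8 of 21 alternatives: with only the compared groups (0.211), and without WT untreated replicate 2 (0.0665), 3 (0.0593) or 4 (0.0507), WT 24 h replicate 2 (0.0635), KO untreated replicate 1 (0.226), or KO 24 h replicate 1 (0.0728) or 2 (0.385). At 6 h the difference was -1.72 ± 0.40 (adjusted p = 0.202). It passed by DESeq2 (adjusted p = 0.0194), with the replicate number as a block (-1.72 ± 0.35, adjusted p = 0.0363) and against WT replicates 3 and 4 alone (-1.97 ± 0.31, adjusted p = 0.000741), but not against WT replicates 1 and 2 alone (-1.50 ± 0.38, adjusted p = 0.307). Tnip1 differed by -1.30 ± 0.24 at 24 h (2.47-fold smaller rise, adjusted p = 0.0192) and by -0.78 ± 0.24 at 6 h (adjusted p = 0.663). The 24 h call was lost with only the compared groups (0.071) and without KO untreated replicate 2 (0.18) or KO 24 h replicate 1 (0.0918) or 2 (0.211).
Against WT replicates 1 and 2 alone, the set that lay with KO on the first component, the KO differences were -3.08 (adjusted p = 0.0256) for Nfkbie at 6 h and -2.27 (0.0076), -3.19 (0.00409) and -1.47 (0.0208) for Nfkbia, Nfkbie and Tnip1 at 24 h. Against WT replicates 3 and 4 alone they were -2.00 (adjusted p = 0.00622), -1.60 (0.00881), -2.19 (0.00608) and -1.11 (0.0184), so each kept its direction in both sets.

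Tnfaip3 had a large difference that did not pass, -2.92 ± 0.68 at 6 h (adjusted p = 0.202) and -2.02 ± 0.66 at 24 h (adjusted p = 0.341), with few UMIs in KO. The 6 h difference passed by DESeq2 (adjusted p = 0.0194) and against WT replicates 3 and 4 alone (-3.18 ± 0.70, adjusted p = 0.0126), but not against WT replicates 1 and 2 alone (-2.67 ± 0.77, adjusted p = 0.436) or with the block (-2.71 ± 0.71, adjusted p = 0.171). For Bcl3 the difference was -0.29, with a 95% interval of -1.49 to 0.92, at 6 h and -0.45, with an interval of -1.61 to 0.71, at 24 h, and both intervals include the difference measured for Tnip1 at 24 h. Nfkbib (-0.19 ± 0.28 and -0.28 ± 0.27), Cyld (-0.12 ± 0.43 and -0.59 ± 0.42) and Nfkbiz (0.90 ± 0.66 and 0.46 ± 0.61) did not pass.

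**Figure D4:**
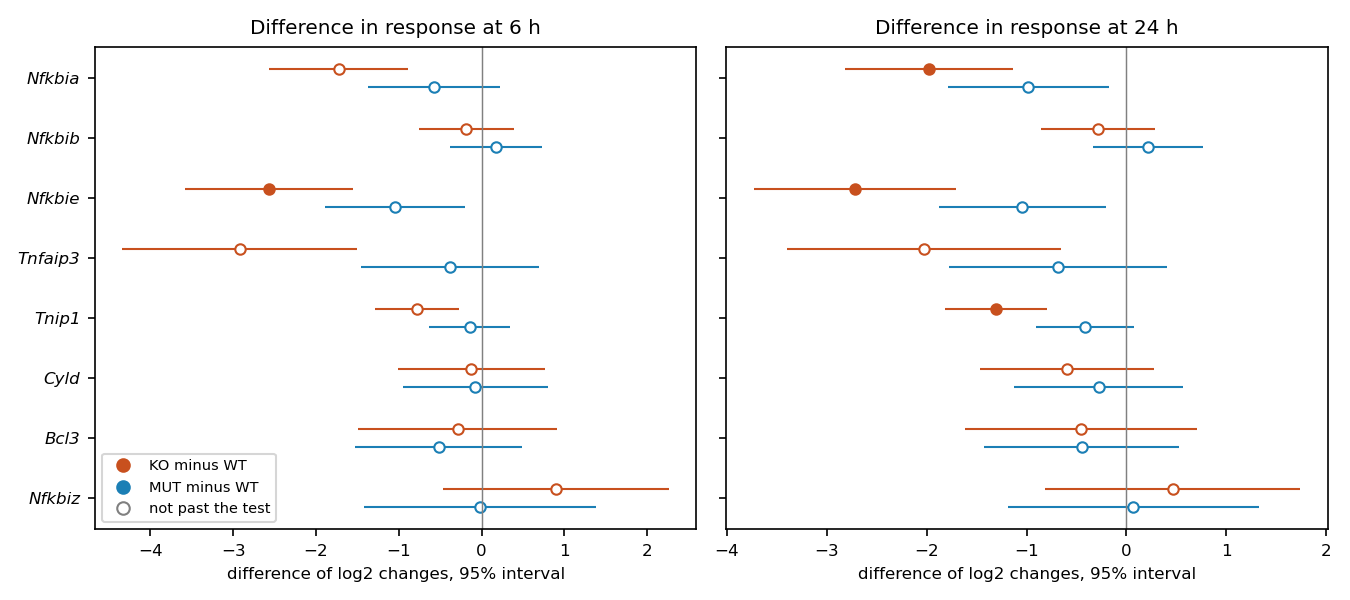
Difference in log2 change against WT (KO minus WT and MUT minus WT) at 6 h (left) and 24 h (right), with 95% intervals and filled points for genes past the test. The KO differences of Nfkbie (-2.57 at 6 h and -2.72 at 24 h), Nfkbia and Tnip1 (24 h) passed, and no MUT difference did.

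MUT minus WT and MUT minus KO called no gene at either time (267 and 507 genes at an unadjusted p under 0.05 for MUT minus WT at 6 and 24 h, 578 and 813 for MUT minus KO, and 0, 5, 0 and 5 genes by DESeq2). The MUT minus WT differences of Nfkbie were -1.04 (95% interval -1.89 to -0.20) at 6 h and -1.04 (-1.88 to -0.20) at 24 h, with adjusted p-values of 1 and 0.964. For Nfkbia they were -0.57 (-1.38 to 0.23) and -0.98 (-1.78 to -0.18), with the same adjusted p-values. Against WT replicates 3 and 4 alone, the set that lay with MUT, they were -0.47 and -0.50 for Nfkbie and -0.80 and -0.59 for Nfkbia. Over all 20 alternatives those of Nfkbie ran from -1.56 to -0.47 at 6 h and from -1.51 to -0.50 at 24 h. Those of Nfkbia ran from -0.83 to -0.34 and from -1.27 to -0.59. MUT minus KO gave 1.52 (0.44 to 2.61) and 1.68 (0.59 to 2.76) for Nfkbie, with unadjusted 95% intervals. It gave 1.15 (0.20 to 2.10) and 0.995 (0.044 to 1.95) for Nfkbia. Tnip1 had 0.64 (0.06 to 1.21) and 0.89 (0.31 to 1.47), and Tnfaip3 2.54 (1.02 to 4.05) and 1.34 (-0.15 to 2.83). The others were Nfkbib (0.36 and 0.50), Bcl3 (-0.23 and 0.0031), Cyld (0.05 and 0.32) and Nfkbiz (-0.92 and -0.39).

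The order of the group means was alike for Nfkbia and Nfkbie among treated cells. For both it ran from WT 6 h through WT 24 h, MUT 6 h, MUT 24 h and KO 6 h to KO 24 h, with all untreated groups below. For Nfkbie, MUT 6 h and every later neighbour down to KO 24 h were separated in their libraries, and the lowest WT 24 h library (85.7 CPM) was above MUT 6 h (66.4 CPM at most). For Nfkbia the WT 24 h and MUT 6 h libraries overlapped (386 against 416 CPM). For Tnip1 the MUT 6 h libraries (188 and 194 CPM) lay within the WT 24 h range, and the MUT 24 h libraries (123 and 142 CPM) lay within the KO 6 h range.

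Before treatment no member passed in any comparison of genotypes. In KO against WT 0.00882% of genes passed, which is Map3k14 itself. Bcl3 was lower in untreated KO (9.92 and 13.3 CPM) than in WT replicates 2, 3 and 4 (24.8, 34.0 and 24.4 CPM) but not than in WT replicate 1 (8.37 CPM). That difference was -1.0 ± 0.43 (adjusted p = 0.965) over all WT, -0.57 ± 0.46 (adjusted p = 0.889) against WT replicates 1 and 2, and -1.39 ± 0.29 (adjusted p = 0.00409) against replicates 3 and 4. MUT against KO gave 1.33 ± 0.46 (adjusted p = 0.293), where 0.00882% of genes passed. MUT against WT passed for no gene (815 at an unadjusted p under 0.05, 2 by DESeq2).

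Other genes of the pathway were counted from lists. Of 15 tested feedback and IkB-like regulators, 3 rose in WT at 6 h: Zc3h12a, an RNase that degrades inflammatory transcripts (1.12 ± 0.26, adjusted p = 0.0093), Zfp36, which destabilises AU-rich mRNAs (0.88 ± 0.26), and Tank, an adaptor of TRAF signalling (0.75 ± 0.21). Their list's median was 0.09, against 1.71 for the members. At 24 h Zc3h12a alone passed (0.88 ± 0.25), and it was the 1 regulator past the test in MUT at 6 h (1.72 ± 0.35). No regulator passed in MUT at 24 h or in KO. Of the 5 NF-kB subunits, 4 rose in WT at 6 h, Nfkb1 (1.25 ± 0.14), Nfkb2 (2.41 ± 0.14), Rela (0.70 ± 0.15) and Relb (2.54 ± 0.15), and 3 at 24 h. Nfkb2 and Relb rose in KO at 6 h (1.15 ± 0.20 and 1.65 ± 0.22). The KO minus WT difference of Nfkb2 was -1.26 ± 0.24 at 6 h and -1.87 ± 0.24 at 24 h.
Several of these calls were lost when 1 library was left out, in most cases whichever of several it was. In WT at 6 h, Tank lost its call in 6 of 16 alternatives (including without untreated replicate 3 or 4 and without 6 h replicate 2 or 3) and Zfp36 in 8 (including without untreated replicate 1, 2 or 3 and without 6 h replicate 3 or 4). At 24 h Zc3h12a lost it in 7 (including without untreated replicate 2, 3 or 4 and without 24 h replicate 1 or 2) and Rela without 24 h replicate 1. Zc3h12a in MUT and Nfkb2 in KO at 6 h lost theirs without any 1 of the 4 libraries compared, and Relb in KO without 6 h replicate 2. The 6 h difference of Nfkb2 was lost in 12 of 21 alternatives, among them without WT untreated replicate 2, 3 or 4, WT 6 h replicate 1, 3 or 4, KO untreated replicate 1 or KO 6 h replicate 1 or 2, and its 24 h difference in none.
The WT sets also moved calls of these lists. In WT replicates 1 and 2 alone the 6 h changes of Tank (0.60 ± 0.21, adjusted p = 0.164), Zfp36 (0.21 ± 0.27, adjusted p = 0.788) and Rela (0.57 ± 0.18, adjusted p = 0.104) did not pass. The 6 h KO minus WT difference of Nfkb2 (-1.22 ± 0.26, adjusted p = 0.107) did not pass against that set either. In WT replicates 3 and 4 alone Zc3h12a did not pass at 24 h (0.33 ± 0.28, adjusted p = 0.543). Against that set the 6 h KO minus WT difference of Nfkb1 passed (-0.94 ± 0.23, adjusted p = 0.0244). With the replicate number as a block, Tank (0.53 ± 0.15, adjusted p = 0.021) and Nfkb1 (0.45 ± 0.13, adjusted p = 0.025) passed at 24 h in WT.

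Of 9 tested IKK and upstream kinase genes, Map3k14 rose in WT (1.18 ± 0.24 and 0.97 ± 0.23) and no other passed at 6 or 24 h in any genotype. Of 13 receptor adaptors and ligases, 5 rose in WT at both times: Traf1 (5.47 ± 0.46 at 6 h), Birc3, the ligase cIAP2 (2.51 ± 0.17), Birc2, Traf3 and Traf2. In MUT 3 of the 13 passed at both times (Traf1, Birc3 and Traf3) and in KO none did. The MUT calls of Traf3 were lost without any 1 of the libraries compared, and that of Traf1 at 24 h without untreated replicate 1 or 2 or 24 h replicate 2. Birc3 differed between KO and WT at 24 h (-1.62 ± 0.32, adjusted p = 0.0305), a call lost in 8 of 21 alternatives, among them without WT untreated replicate 2 or 3, WT 24 h replicate 2, or any 1 of the 4 KO libraries. Map3k14 at 24 h in WT was not called without 24 h replicate 3. In WT replicates 1 and 2 alone Map3k14 did not pass at 6 h (1.25 ± 0.34, adjusted p = 0.0623) or 24 h (0.84 ± 0.32, adjusted p = 0.149), and Traf2 did not pass at 6 h (0.54 ± 0.24, adjusted p = 0.281). In WT replicates 3 and 4 alone Birc2 did not pass at 6 h (0.69 ± 0.29, adjusted p = 0.131). The 6 h KO minus WT difference of Birc3 passed against WT replicates 3 and 4 alone (-1.54 ± 0.35, adjusted p = 0.017) and with the block (-1.57 ± 0.29, adjusted p = 0.0209). The 24 h difference of Birc2 passed with the block (-1.75 ± 0.38, adjusted p = 0.0192), and that of Traf1, with at most 2 UMIs in each untreated library of WT and KO, against WT replicates 1 and 2 alone (adjusted p = 0.0149).

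The levels of the 6 induced members moved together across the 24 libraries, with Pearson r of log2 CPM from 0.696 (Nfkbib with Bcl3) to 0.973 (Nfkbia with Nfkbie). The libraries share genotype, time and set, and the 6 were picked for their rise in WT libraries among these 24. High r is thus partly built in, so these values describe the samples and were given no p. Nfkbiz had r of -0.439 to 0.0568 with the other members and Cyld had 0.0362 to 0.423 with the 6. Over 9852 genes with a mean of at least 5 CPM, the 3 genes most like Nfkbia were Nfkb2 (r = 0.987), Birc3 (0.972) and Gm16685 (0.961). Those most like Nfkbie were Birc3 (0.979), Gm16685 (0.978) and Cxcl16 (0.975). For Tnip1 they were Gm16685 (0.960), Nfkb2 (0.956) and Cxcl16 (0.954), and for Nfkbib they were Nfkb2 (0.927), Birc3 (0.902) and Relb (0.894). Tnfaip3 was nearest to Trim47 (0.942), Icam1 (0.934) and Slc20a1 (0.922), and Bcl3 to Serpina3g (0.948), Slfn2 (0.924) and Mycl (0.922). Cyld was nearest to Ankrd13c (0.838), Axl (0.823) and Tbc1d2 (0.801), and Nfkbiz to Bnc2 (0.788), Prkar1a (0.773) and Zmym6 (0.757).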

How the data were processed

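Bulk MARS-seq libraries of the 24 cultures had each been prepared with 50 ng of total RNA, isolated by either of 2 kits without a record of which kit served which sample, per the labels' protocols. As tools, the submitters' processing notes list cutadapt, STAR 2.7.10a, HTSeq and DESeq2, with GRCm38 as build. UMI counts per gene in the deposited table were whole numbers without normalisation, and the lowest maximum of any gene over the libraries was 6. Its 48 normalised and rlog columns and the authors' comparison columns were not used here.

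The analysis used edgeR 4.0.16 in R 4.3.3. filterByExpr by group left out 2142 of 13479 genes, TMM was the normalisation, and a single glmQLFit model held the 9 groups. Of its contrasts, 18 went through the quasi-likelihood test, with Benjamini-Hochberg adjustment over all genes tested and a threshold of 0.05. The SE of a log2 change was taken from the change and F, and intervals are 95%. A prior count of 2 entered log2 CPM. The script was tested on simulated data. DESeq2 1.42.0, other size factors, no filter on low counts, subsets of libraries, a replicate block and leave-outs were alternatives. Library totals of 889863 to 4342981 UMIs and 2 libraries in each MUT and KO group limit the precision.

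Pairing by replicate number was checked on 7289 genes (mean log2 CPM over 4), as the correlation of deviations from group means. It was 0.328 to 0.688 for equal numbers in WT and reached 0.505 for unequal ones. Every equal-numbered WT pair was over 0.1, a hint from the data that the numbers pair WT libraries, while the labels state no pairing. The main tests did not use this pairing, and the replicate block was fitted only as an alternative. Equal numbers also share the unlabelled set seen on the first component, so the check cannot tell pairing by number from the set. Between untreated and 6 h the highest unequal value (0.441) was above the lowest equal one (0.328). For equal numbers the correlation was 0.00108 to 0.0710 in MUT and -0.282 to 0.0996 in KO.

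The members and the lists were chosen with earlier results of these data known. The plan was to name all 8 members in every contrast, with up to 4 genes per list by smallest adjusted p. Map3k14, the NF-kB subunits and the 3 genes most like each member were added. Not every member is given above for differences between genotypes, untreated cells or 24 h against 6 h. For WT, 5 adaptors and ligases are named. The kB search used RefSeq promoter windows, and the consensus was chosen with the sequences at hand. A search of protein sequences for the degradation motif was planned and not run, as no protein sequences were used here.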

Additional observations from a re-analysis of the deposited data

Results flagged for a closer look

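Bcl3 in WT replicate 1 after 6 h of TWEAK stood at 42.7 CPM, below the 73.5 to 78.0 CPM of the other 3 libraries. Its gap to the nearest library was 0.874 of the group's range, above the critical value of 0.829 for 4 samples. It was the 1 case among 24 tests, 1 for each member in each WT group of 4 libraries, and chance gives about 1 in 20.

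The response differed between KO and WT, by the test of the difference itself, in 4 cases. These were Nfkbie at 6 h (-2.57), and Nfkbia (-1.98), Nfkbie (-2.72) and Tnip1 (-1.30) at 24 h, as differences of log2 changes. Each was a smaller rise in KO.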

How the results depend on the processing

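Of 2087 recomputed member values in 33 alternatives, 2001 kept their side of the threshold, 60 fell below it and 26 passed it. None that was called turned its sign. Values called in neither fit could change sign and still count among the 2001. Tnfaip3 in KO from 6 to 24 h, for example, ran from -0.86 to 0.63. In all 16 alternatives the 6 members that rose in WT at 6 and 24 h kept their calls. RLE size factors and library totals moved the median change of all genes by less than 0.1 in each comparison. The limits are 2 libraries in each MUT and KO group, counts of 6 to 13 UMIs for Tnfaip3 in KO, and the library sets, which are not labelled. Where counts changed, the cause was not tested.

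The comparisons below are listed with all genes past the test first, and with members where their number moved. DESeq2 called 120 genes for MUT 24 h, 283 for MUT 24 h against 6 h (1 member), 3 for KO 24 h, 20 for KO minus WT at 6 h (3 members: Nfkbie, Nfkbia and Tnfaip3) and 63 at 24 h, 5 each for MUT minus WT and MUT minus KO at 24 h, and 0, 2 and 12 for untreated KO against WT, MUT against WT and MUT against KO.

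With only the compared groups fitted, the counts were 224 for WT 6 h, 428 for WT 24 h, 12 for WT 24 h against 6 h (0 members), 1345 for MUT 6 h, 1104 for MUT 24 h, 2183 for MUT 24 h against 6 h (4 members), 15 for KO 6 h (1 member), 4 for KO 24 h, 0 for KO minus WT at 6 h (0 members) and 9 at 24 h (0 members), 66 and 13 for MUT minus KO, and 560 for untreated MUT against KO (1 member).

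With the replicate block they were 1314 for WT 6 h, 1770 for WT 24 h, 1323 for WT 24 h against 6 h (2 members), 853 for MUT 6 h, 355 for MUT 24 h, 972 for MUT 24 h against 6 h (1 member), 14 for KO 6 h, 4 for KO 24 h (1 member, Bcl3, adjusted p = 0.0215), 29 for KO minus WT at 6 h (2 members, with Nfkbia at 0.0363) and 160 at 24 h, 9 for MUT minus WT and 7 for MUT minus KO at 24 h, and 2, 1500 and 647 (1 member, Bcl3) for untreated KO against WT, MUT against WT and MUT against KO. The block also called Bcl3 (0.003) in MUT at 6 h and Tnfaip3 in MUT at 24 h (0.0212) and from 6 to 24 h (0.0187), and Cyld in WT at 24 h. The numbers were not seen to pair in MUT or KO. With the untreated KO numbers crossed, a block chosen after seeing the data, the counts were 16 for KO 6 h, 4 for KO 24 h (1 member), 32 for KO minus WT at 6 h (2 members) and 222 at 24 h, and 4 and 87 for MUT minus KO.

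With WT replicates 1 and 2 only they were 307 for WT 6 h, 118 for WT 24 h against 6 h (0 members), 4 and 74 for KO minus WT, 28 for MUT minus WT at 6 h, and 2 and 1075 for untreated KO and MUT against WT. With WT replicates 3 and 4 only they were 1495 for WT 6 h, 1669 for WT 24 h against 6 h (2 members), 256 for KO minus WT at 6 h (the same 3 members) and 125 at 24 h, 7 for MUT minus WT at 24 h, and 783 (1 member) and 4 for untreated KO and MUT against WT.

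Leaving out 1 library at a time gave 424 to 938 genes for WT 6 h, 521 to 736 for WT 24 h (6 to 7 members), 134 to 601 for WT 24 h against 6 h (0 to 1 members), 30 to 63 for MUT 6 h (4 to 5 members), 17 to 23 for MUT 24 h (2 to 3 members), 0 to 2 for MUT 24 h against 6 h, 1 to 3 for KO 6 h (0 members), 0 to 1 for KO 24 h and for KO 24 h against 6 h, 0 to 13 for KO minus WT at 6 h (0 to 1 members) and 7 to 32 at 24 h (0 to 3 members), 0 to 2 for MUT minus WT at 24 h, and 0 to 1 for MUT minus KO at both times. A group left with 1 library was assumed to vary like the others.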
